A study of Mus musculus with 4 samples.

Results

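The AP-1 transcription factor family was followed through the hypothalamus of control and ΔFosB mice. The family was taken as 10 genes: the Fos genes Fosb, Fos, Fosl1 and Fosl2, the Jun genes Jun, Junb and Jund, and Atf3, Batf and Batf3. Members were found by their symbol in the authors' probe set table, and each was measured by 1 probe set, so 10 of the 21265 genes with a single gene identifier are described. Fosb is included because ΔFosB, after which the mice are named, is a shortened splice form of its protein.

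Hypothalamic RNA of male mice, all aged 12 weeks, was hybridised to 4 Affymetrix arrays, 2 of wild-type controls and 2 of mice whose genotype is spelled ENOI2DeltaFosB on the samples and ENO2DeltaFosB in the title. Neither group was treated. Eno2 encodes neuron-specific enolase. The labels do not describe the transgene construct, the cells that express it, the strain, or whether 1 animal stands behind each array. The p-values therefore reflect array-to-array spread within these 4, which may be technical. Arrays are called A and B after their titles.

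AP-1 is a dimer of basic leucine zipper (bZIP) proteins that binds short DNA elements in promoters and enhancers. Fos proteins need a Jun partner to bind DNA, Jun proteins can also pair with each other, and ATF and BATF proteins join the same dimers and shift what they bind or activate. Fos is a classical immediate early gene, induced within minutes of neuronal activity, and in the hypothalamus its product is used to map neurons activated by feeding, salt, stress or light. ΔFosB lacks the C-terminal part of FosB and is unusually stable, so it builds up under repeated stimulation. Induction of Fos and of several relatives runs through cAMP response elements (CRE) and serum response elements near their start sites.

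The promoter sequences of Fosb, Fosl2, Fos and Jun are shown because Fosb and Fosl2 passed the test between genotypes, and Fosb, Fos and Jun stood together in the comparison of the ΔFosB arrays. Each line holds the 250 bases before the RefSeq start site, 5′ to 3′ on the gene's strand, of build GRCm38.p6. The windows are chr7:19310046-19310295, minus strand (Fosb), chr5:32136222-32136471, plus strand (Fosl2), chr12:85473640-85473889, plus strand (Fos) and chr4:95052223-95052472, minus strand (Jun). Capitals mark matches to the AP-1 element TGANTCA, the CRE-like element TGACNTCA or the CRE core TGACG, searched on both strands.
Fosb: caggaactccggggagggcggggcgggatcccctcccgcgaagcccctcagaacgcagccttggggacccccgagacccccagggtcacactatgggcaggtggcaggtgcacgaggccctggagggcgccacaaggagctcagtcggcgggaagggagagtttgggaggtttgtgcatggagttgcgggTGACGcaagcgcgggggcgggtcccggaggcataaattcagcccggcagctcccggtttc
Fosl2: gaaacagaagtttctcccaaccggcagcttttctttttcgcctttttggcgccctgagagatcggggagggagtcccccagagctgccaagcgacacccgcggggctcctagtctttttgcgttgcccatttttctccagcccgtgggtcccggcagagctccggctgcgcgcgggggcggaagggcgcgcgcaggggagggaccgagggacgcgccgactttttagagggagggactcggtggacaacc
Fos: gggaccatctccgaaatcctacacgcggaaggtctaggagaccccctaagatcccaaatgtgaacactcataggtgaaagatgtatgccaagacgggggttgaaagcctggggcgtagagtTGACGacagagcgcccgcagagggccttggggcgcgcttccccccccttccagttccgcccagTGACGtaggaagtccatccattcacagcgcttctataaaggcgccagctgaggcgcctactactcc
Jun: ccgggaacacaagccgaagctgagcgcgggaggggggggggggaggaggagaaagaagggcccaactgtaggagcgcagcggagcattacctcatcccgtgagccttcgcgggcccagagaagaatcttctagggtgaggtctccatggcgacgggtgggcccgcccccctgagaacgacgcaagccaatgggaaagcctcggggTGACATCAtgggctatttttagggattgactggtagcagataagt
The windows of Fosb, Fos and Jun each held a match and that of Fosl2 held none. In Fosb the CRE core began 60 bases before the start. In Fos it began at 129 and 66 bases, the nearer one followed by a TATA box (TATAAA) at 33 bases. In Jun the match was TGACATCA, which began 45 bases before the start. RefSeq windows were matched for 9 members, and 5 of these held the CRE core (Fosb, Fos, Junb, Atf3 and Batf), against 17.7% of 32817 windows of the same length. The full CRE TGACGTCA, which contains the core and is one form of TGACNTCA, was in 0 of the 9 and in 1.55% of all windows. TGANTCA was in 0 of the 9 against 6.75%, TGACNTCA in 1 against 7.49%, TATAAA in 1 against 12.4%, and the CArG box of serum response elements in 0 against 1.47%. A match describes these letters only, and no match says nothing of binding elsewhere.

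Of the 9 members bright enough to be tested, Fosb and Fosl2 were higher on ΔFosB arrays, 0 were lower and 7 did not pass. Fosb was 1.43-fold and Fosl2 1.27-fold higher. Of 14520 genes tested with limma, 6.18% were higher and 6.91% lower at a Benjamini-Hochberg adjusted p under 0.05, 13.1% in all. Both calls depended on single arrays, as given below for each gene. The median log2 fold change was 0.11 over the 9 members and 0.02 over all genes tested. The 0.11 is the value of Fosl1, which was 0.04 with quantile normalization. Both ΔFosB arrays lay above both control arrays for 4 of the 9 (Fosb, Fosl2, Fosl1 and Batf3), against 34.7% of all genes tested, and below them for 0, against 25.6%. Bulk tissue RNA was measured, so fewer cells expressing a gene and less RNA per cell cannot be told apart. With 2 arrays against 2, an exact permutation test of a single gene cannot go below p = 0.333.

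**Figure D1:**
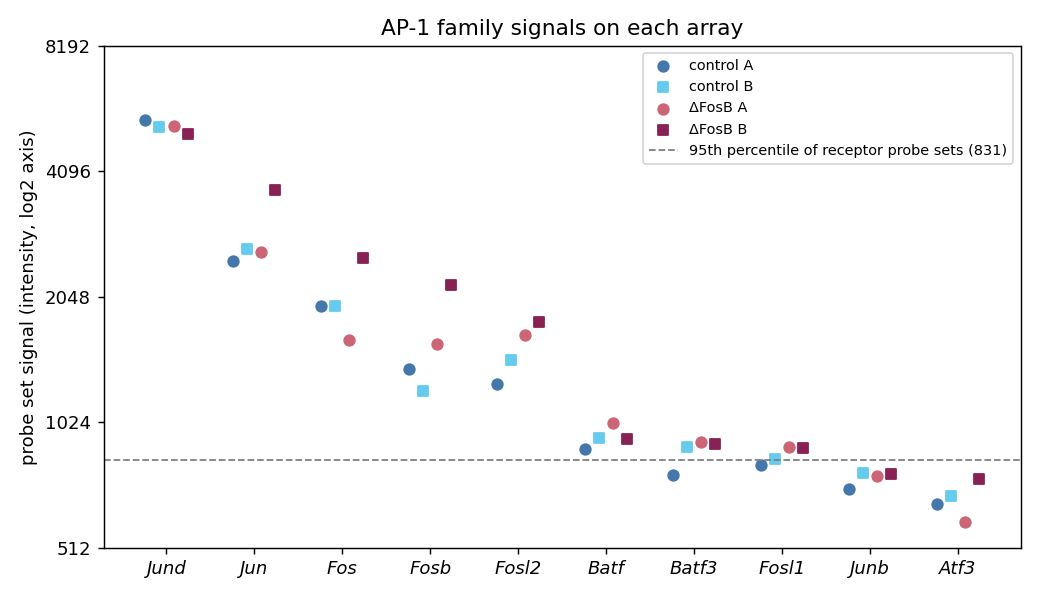
Probe set signal (intensity, log2 axis) of each AP-1 gene on each of the 4 arrays, ordered by mean signal. Circles are A arrays and squares B arrays, and the dashed line marks 831, the 95th percentile of the nasal receptor probe sets described below. The ΔFosB B array is the highest for Jun, Fos, Fosb, Fosl2 and Atf3.

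To gauge background, 1216 probe sets for receptor genes of the nose (olfactory and vomeronasal) were used. Their median was 299 and their 95th percentile 831. The signals of 6 members lay above this percentile on every array (Jund, Jun, Fos, Fosb, Fosl2 and Batf). Fosl1 and Batf3 lay on both sides of it, and Junb and Atf3 below it on every array. Signals of different probe sets are not compared with each other, since each has its own probe affinity.

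Fosb, the gene from which ΔFosB is spliced, had signals of 1377 and 1220 on control arrays A and B and of 1579 and 2189 on ΔFosB arrays A and B. Both ΔFosB arrays were above both controls, and ΔFosB B was well above ΔFosB A. The log2 fold change was 0.52 (SE 0.13, 95% interval 0.21 to 0.83, limma adjusted p = 0.0389), from 1299 ± 111 to a mean of 1884 ± 431 (SD, n = 2). The call ended without control A (adjusted p = 0.0853), control B (0.147) or ΔFosB B (0.0684), and without ΔFosB B the log2 fold change was 0.28. It also missed the threshold with quantile normalization (0.0616) and with no filter (0.0511). Without ΔFosB A it was 0.76 (adjusted p = 0.00019). Which part of the transcript the probe set reads was not analysed here, so the signal may include the endogenous gene, the transgene or both, and it may not check the genotype. Eno2, whose name the mouse line carries, had signals of 12586 and 12935 on control and 12274 and 12358 on ΔFosB arrays, a log2 difference of -0.05 (SE 0.04, limma adjusted p = 0.418).

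Fosl2 encodes Fra-2, a Fos protein that lacks a strong activation domain and is induced later than Fos. The probe set read 1265 (A) and 1446 (B) in controls and 1658 (A) and 1780 (B) in ΔFosB mice. The groups did not overlap. In log2 terms the difference was 0.35 (SE 0.08, 95% interval 0.16 to 0.53, adjusted p = 0.0253). It kept its direction without each array in turn, between 0.25 and 0.44, but did not pass without control A (adjusted p = 0.173) or ΔFosB B (0.066).

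Fos, the founding member and the common marker of recent neuronal activity, read 1943 (A) and 1949 (B) in controls and 1613 (A) and 2536 (B) in ΔFosB mice. The controls were nearly equal, and the ΔFosB arrays lay on either side of them, 1.57-fold apart. Between genotypes the log2 difference was 0.06 (SE 0.17, 95% interval -0.32 to 0.44, adjusted p = 0.85), an interval that spans 0.798-fold to 1.35-fold. Without ΔFosB A it was 0.38, and without ΔFosB B it was -0.27. Each of these fits keeps 1 ΔFosB array, so the spread of Fos itself comes from the nearly equal controls alone. No call is therefore read from them. The direction for Fos was thus set by which ΔFosB array was kept.

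Fosl1, which encodes Fra-1, had signals of 809 and 836 on the control and 892 and 886 on the ΔFosB arrays. Both ΔFosB arrays were higher by a small margin, close to the receptor percentile. This came to a log2 difference of 0.11 (SE 0.07, 95% interval -0.04 to 0.27, adjusted p = 0.296).

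**Figure D2:**
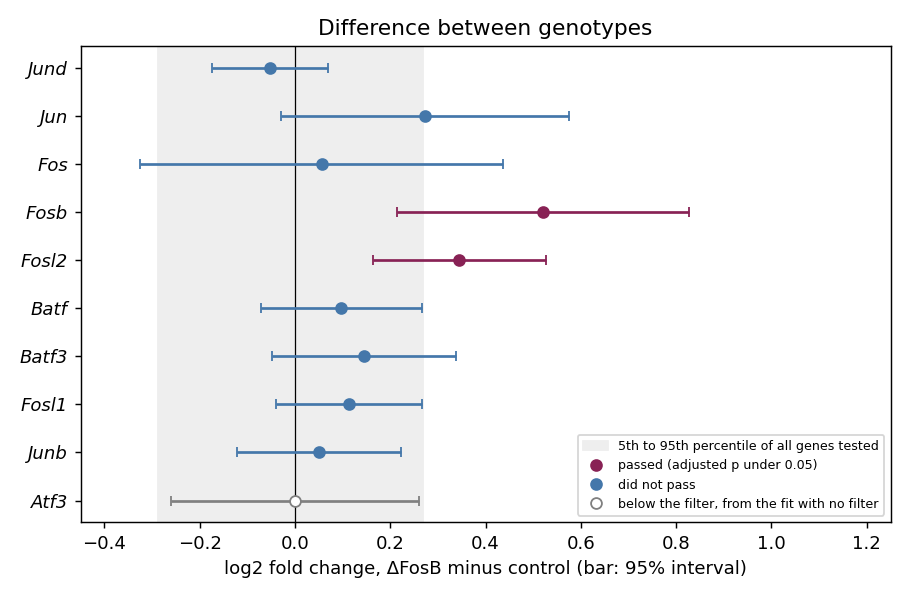
Log2 fold change, ΔFosB minus control, of each AP-1 gene with its 95% interval from limma, against the 5th to 95th percentile of all 14520 genes tested (grey band, -0.29 to 0.27). Fosb and Fosl2 lie above the band and passed. Jun (0.274) lies just above its upper edge (0.270) and did not pass. The intervals of the 7 tested genes that did not pass include 0.

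The Jun proteins are the partners that Fos proteins need. Jun read 2492 (A) and 2669 (B) in controls and 2629 (A) and 3697 (B) in ΔFosB mice. ΔFosB A lay between the controls and ΔFosB B above all others, so the groups overlapped. Its log2 fold change was 0.27 (SE 0.13, 95% interval -0.03 to 0.58, adjusted p = 0.203). It was 0.52 without ΔFosB A (adjusted p = 0.00145) and 0.03 without ΔFosB B (0.873).

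Jund encodes the Jun protein that is made steadily in many cells and is a usual partner of ΔFosB in brain. It read 5434 (A) and 5240 (B) in controls and 5268 (A) and 5025 (B) in ΔFosB mice. The groups overlapped. Its log2 fold change was -0.05 (SE 0.05, adjusted p = 0.541), and its 95% interval of -0.18 to 0.07 spans 0.886-fold to 1.05-fold. Junb, an inducible Jun gene, had signals of 706 and 774 on the control and 761 and 770 on the ΔFosB arrays, all in the receptor range. Its log2 fold change of 0.05 (SE 0.08, adjusted p = 0.69) had a 95% interval of -0.12 to 0.22.

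Atf3, a stress-induced bZIP gene that often represses, had signals of 652 and 680 on the control and 590 and 750 on the ΔFosB arrays. ΔFosB A was the lowest of the 4 and ΔFosB B the highest, as for Fos. Atf3 lay below the filter on low signals (717) and was not tested with the others. Fitted without a filter, its log2 difference was -0.00065 (SE 0.11, 95% interval -0.26 to 0.26, adjusted p = 0.998).

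Batf and Batf3 encode small bZIP proteins best known from lymphocytes and dendritic cells, where they pair with Jun proteins. Batf had signals of 884 and 940 on the control and 1017 and 935 on the ΔFosB arrays, overlapping groups with ΔFosB A highest. Its log2 fold change was 0.10 (SE 0.07, adjusted p = 0.411). Batf3 had signals of 766 and 892 on the control and 921 and 909 on the ΔFosB arrays. The groups did not overlap, but control A lay far below the other 3. Its log2 fold change was 0.15 (SE 0.08, 95% interval -0.05 to 0.34, adjusted p = 0.284), and 0.04 without control A (0.864). Of 8 tested markers of microglia, the resident immune cells of the brain, 0 passed in limma, against 13.1% of all genes tested. An unadjusted limma p under 0.05 was found for 1 of the 8, against 30.5%. Over all 10 listed markers the summed signal was 16131 to 16726 on control and 15384 to 15776 on ΔFosB arrays.

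**Figure D3:**
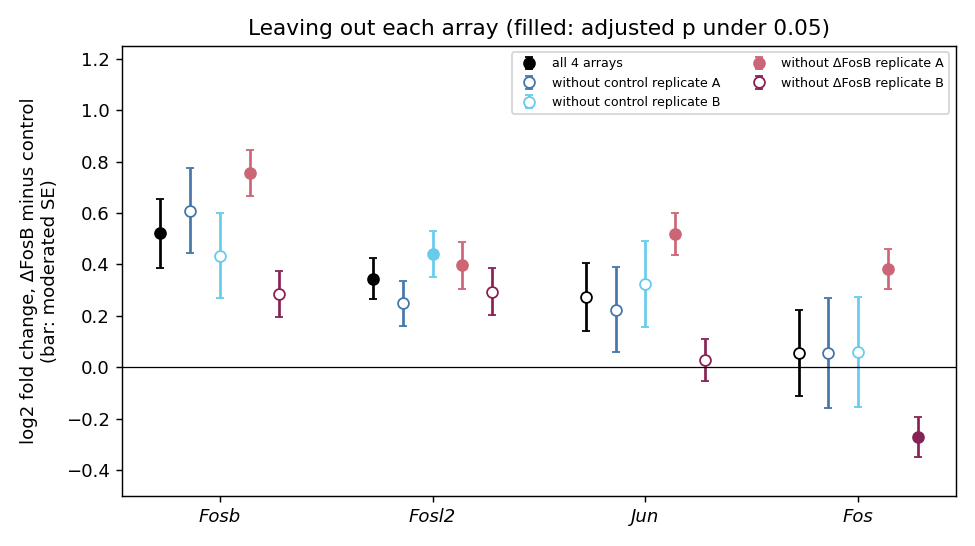
Log2 fold change (bars: moderated SE) of Fosb, Fosl2, Jun and Fos with all 4 arrays and without each array, filled where the adjusted p is under 0.05. Fos moves from 0.38 without ΔFosB A to -0.27 without ΔFosB B, and Jun from 0.52 to 0.03, while Fosl2 stays between 0.25 and 0.44.

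The ΔFosB arrays differed from each other for several members. On ΔFosB B, Fos was 1.57-fold, Jun 1.41-fold and Fosb 1.39-fold higher than on ΔFosB A. That is 3 of the 9 tested members at 1.2-fold or more, a size chosen after the values were seen, against 1.47% of all genes tested. Atf3, in the receptor range on every array and below the filter, read 590 and 750, so its difference of 1.27-fold is one between signals not set apart from background, and it brings the count to 4 of 10. By the same size 0 members were lower, against 1.76%. The other 6 lay between 0.919-fold (Batf) and 1.07-fold (Fosl2). Between the control arrays Fosb differed by 0.886-fold, Jun by 1.07-fold and Atf3 by 1.04-fold, B over A. With 1 array on each side there is no test of this difference.

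Early genes outside the family were compared in the same way. Of 18 tested from a list of 20, 6 were higher on ΔFosB B than on ΔFosB A by 1.2-fold or more and 0 lower by as much. Of all genes tested the shares were 1.47% and 1.76%. Those 6, named after their values were seen, were Nr4a1 (2082 to 2944), Nr4a3 (1861 to 2448), Btg2 (1074 to 1399), Npas4 (1339 to 1718), Egr1 (3317 to 4158) and Gadd45b (696 to 837), with the signal on ΔFosB A first. Gadd45b lay on both sides of the receptor percentile (831) on these arrays and read 828 and 833 on controls. Its difference is thus not set apart from background. On control arrays A and B the activity-dependent factor Npas4 read 1221 and 1149, and the zinc finger factor Egr1 read 3600 and 3314. The median log2 difference of the 18 was 0.13 between the ΔFosB arrays and 0.01 between the control arrays, B minus A. The same median over all genes tested was not computed. Of 25 tested genes listed as bZIP partners, 0 differed by 1.2-fold or more in either direction between the ΔFosB arrays.

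**Figure D4:**
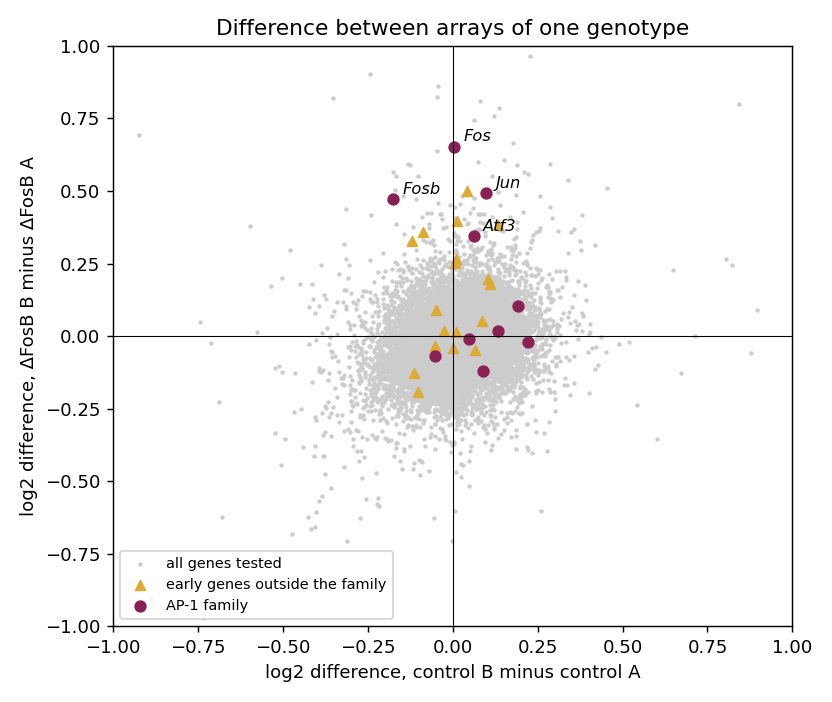
Log2 difference between arrays B and A of the control group (x axis) and of the ΔFosB group (y axis) for each gene tested (grey), the AP-1 genes (dark red circles) and 18 early genes (yellow triangles). Axes end at 1 in either direction, which leaves out 11 genes, and Fos (0.65), Jun (0.49), Fosb (0.47) and Atf3 (0.34) lie high on the y axis. On the x axis Fosb lies at -0.18 and the other 3 lie between 0.0046 and 0.10.

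Other markers also differed between arrays. The summed signal of 7 thalamic markers was 30029 and 20010 on control A and B and 23305 and 14989 on ΔFosB A and B, lower on B in both groups. All 12 hypothalamic neuron markers passed the filter on low signals, 3 of them (Fezf1, Nr5a1 and Agrp) with a control mean below it. The summed signals of the 12 were 18056 and 29051 on control and 51616 and 53407 on ΔFosB arrays. Most of the gap between the control sums came from Hcrt (2557 on A, 7256 on B) and Pmch (6076 and 11170). Neither of these passed between genotypes. Of the 12, 9 were higher, and of the 9 with both group means above the filter, 7. All 9 myelin markers were lower (summed signal 104631 to 107477 on control, 73581 to 79622 on ΔFosB arrays), as were 5 of 9 markers of midbrain dopamine neurons (34740 to 41973 against 16350 to 17039). General neuronal markers had 0 higher and 1 lower of 8. Of 7 astrocyte markers 1 was higher and 3 lower, of 6 endothelial markers 0 and 2, of 7 thalamic markers 1 and 0, and of 2 pituitary and 2 blood markers 0 and 0. Beside these marker counts, 6.18% of all genes tested were called higher and 6.91% lower. The part of these shifts in the AP-1 differences was not tested.

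The 3 genes below had the profiles over the 4 arrays closest to that of Fosb, by Euclidean distance between log2 signals centred on each gene's mean. They were Fbln5 (0.133), which encodes the matrix protein fibulin 5, Nr4a3 (0.145), an orphan nuclear receptor gene of the early response, and Rrad (0.163), a small GTPase gene. Fbln5 read 1013 and 944 on control and 1248 and 1831 on ΔFosB arrays, and Rrad 944 and 924 against 1263 and 1672. The log2 fold changes of Fbln5 and Rrad were 0.63 (SE 0.15) and 0.64 (SE 0.12). Genes picked for likeness to Fosb, which was called higher, differ in the same direction by that choice. No test is therefore read from them. For Fbln5 the value was 0.68 without control A and 0.58 without control B. The log2 change of Fbln5 was 0.91 without ΔFosB A and 0.35 without ΔFosB B. Of the family, Jun came nearest, at rank 66 of 14519, and Fosl2 stood at rank 455 and Fos at 1751. A distance over 4 arrays is a description of these arrays.

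The genes around AP-1 were read from lists by role. The list named bZIP partners holds ATF, CREB, Maf, C/EBP and NF-E2 genes among others, and not each is known to pair with Jun or Fos proteins. Of its 25 tested genes 0 passed in limma, against 13.1% of all genes tested, and 6 had an unadjusted p under 0.05, against 30.5%. The median log2 fold change was 0.02. For Batf2, the remaining BATF gene, the log2 difference was 0.17 (SE 0.07, adjusted p = 0.154), and for Atf7, which binds CRE elements, -0.21 (SE 0.06, adjusted p = 0.0538).

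Of 30 tested kinases that act on AP-1 proteins or their inducers, 3 rose, 0 fell and 27 did not pass. Rps6ka2, a ribosomal S6 kinase downstream of ERK, read 2781 and 3034 on control and 3764 and 3922 on ΔFosB arrays (log2 fold change 0.40, SE 0.06, adjusted p = 0.00479). Map3k5, the stress kinase ASK1, rose by 0.37 (SE 0.07, adjusted p = 0.00805). The p38 kinase gene Mapk14 rose by 0.21 (SE 0.05, adjusted p = 0.0369), a call lost without any one of the arrays (adjusted p from 0.0647 to 0.171) and without the intensity trend (0.0522). The median of the list was -0.03.

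Factors that switch on AP-1 genes gave 3 that rose, 0 that fell and 12 that did not pass, of 15 tested (median 0.09). Mrtfb, a coactivator of serum response factor, read 5076 and 4808 on control and 6279 and 6130 on ΔFosB arrays (0.33, SE 0.05, adjusted p = 0.00532). With each probe set taken alone, another of its probe sets had 0.20 and did not pass (0.116). Elk1, a partner of serum response factor, rose by 0.28 (SE 0.07, adjusted p = 0.027), and Crtc1, a CREB coactivator, by 0.26 (SE 0.06, adjusted p = 0.0261). Neither passed without control A (0.0802 and 0.0666), control B (0.11 and 0.118) or ΔFosB A (0.11 and 0.0878).

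Of 24 genes that restrain or modify AP-1 (phosphatases, ubiquitin ligases, repressors and splicing factors), 2 fell, 0 rose and 22 did not pass (median 0.02). Dusp1, a phosphatase that switches off MAP kinases and is itself an early gene, read 3833 and 3262 on control and 2861 and 2753 on ΔFosB arrays, and fell by 0.33 (SE 0.08, adjusted p = 0.0286). It did not pass without control A (0.171), where the log2 change was -0.22, or without ΔFosB B (0.0687). Ppp1r1b, which encodes the phosphatase inhibitor DARPP-32, fell by 0.32 (SE 0.06, adjusted p = 0.0152), and did not pass without control A (0.105) or control B (0.0546). Ptbp1, the splicing repressor known to steer the Fosb transcript away from the ΔFosB form, did not pass (0.05, SE 0.07, adjusted p = 0.683) and is named for its role, outside the naming rule.

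**Figure D5:**
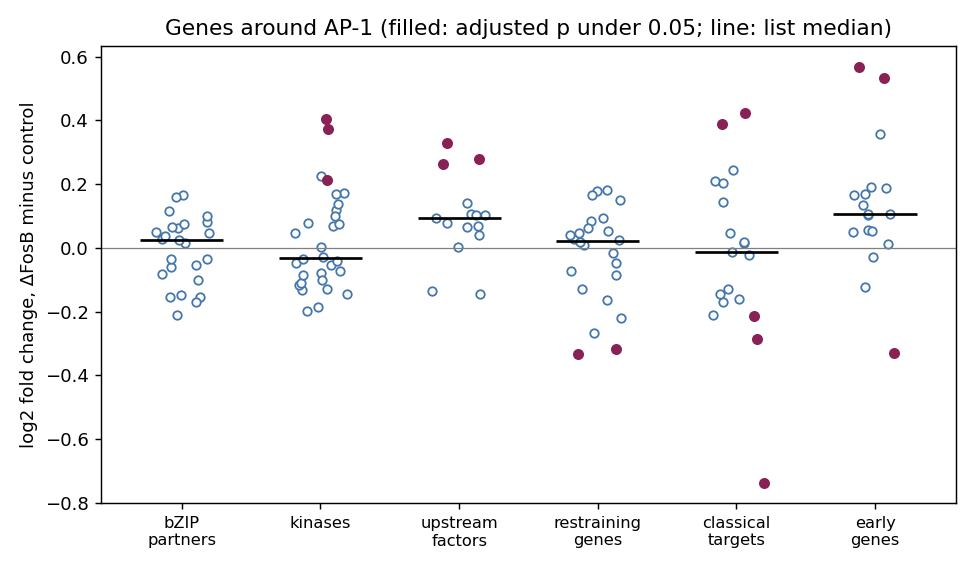
Log2 fold change, ΔFosB minus control, of every tested gene of 6 lists around AP-1, filled where the adjusted p is under 0.05, with the list median as a line. Called higher are 10% of kinases and 20% of upstream factors, against 6.18% of all genes tested, and called lower are 8.33% of restraining genes, against 6.91%.

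Of 19 tested genes that textbooks give as AP-1 targets, 2 rose, 3 fell and 14 did not pass, with a median of -0.01. That is 10.5% higher and 15.8% lower, against 6.18% and 6.91% of all genes tested. Vim, the intermediate filament vimentin, rose by 0.42 (SE 0.08, adjusted p = 0.0104), a call lost without control B, where it was 0.37. Lgals3, the lectin galectin-3, rose by 0.39 (SE 0.07, adjusted p = 0.00739). Its control signals of 728 and 740 lay in the receptor range, below the percentile of 831. Spp1, the matrix protein osteopontin, read 1508 and 1639 on control and 725 and 1227 on ΔFosB arrays, and fell by 0.74 (SE 0.19, adjusted p = 0.0413). The surface receptor gene Cd44 fell by 0.29 (SE 0.07, adjusted p = 0.0296), and Fth1, ferritin heavy chain, by 0.21 (SE 0.04, adjusted p = 0.0141). On ΔFosB arrays Cd44 (843 and 827) lay close to the receptor percentile, and Spp1 lay below it on ΔFosB A. None of these 3 decreases passed without control A (0.125, 0.175 and 0.0883) or control B (0.13, 0.0545 and 0.0556), and that of Cd44 did not pass without ΔFosB B (0.0783). Without the intensity trend Fth1 (0.0672) and Spp1 (0.0529) missed the threshold, and Spp1 also missed it with quantile normalization (0.0566), no filter (0.0543) or each probe set alone (0.0517). The log2 change of Spp1 was -0.36 without ΔFosB A and -1.12 without ΔFosB B.

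Of the 18 tested early genes outside the family, 2 rose, 1 fell and 15 did not pass, with a median of 0.11. The shares were 11.1% higher and 5.56% lower, against 6.18% and 6.91% of all genes tested. Nptx2, a synaptic pentraxin, read 1270 and 1184 on control and 1944 and 1700 on ΔFosB arrays (0.57, SE 0.08, adjusted p = 0.0028). Nr4a3 read 1467 and 1481 on control and rose by 0.53 (SE 0.11, adjusted p = 0.0172), a call lost without control A (0.0878) or control B (0.0579). Its log2 change was 0.73 without ΔFosB A and 0.34 without ΔFosB B. Ier3 fell by 0.33 (SE 0.07, adjusted p = 0.0137), a call lost without control A (0.0974). Over the 6 lists 16 genes were called.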

How the data were processed

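Total RNA of the hypothalamus was hybridised as biotinylated cRNA, per the labels' protocols. The authors deposited 1 linear intensity per probe set and array, and MAS5 stands in the submitters' processing notes with no version. For scaling target and genome build, nothing is given in the sources used here. Signals of 35474 probe sets equalled the series' value table (largest difference 0), and summed to 68636590 to 68961790 per array. Precision is limited by having only 4 arrays, and the standard error of a gene's log2 difference had a median of 0.066. The 4 ratio columns of the sheet were not used.

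Intensities were taken to log2 with no pseudocount. Current symbols were looked up by gene identifier in RefSeq (GRCm38.p6), the source of the promoter windows too. Each gene was represented by its brightest probe set, and the upper 60% of probe sets by mean signal (from 717) were kept, leaving 14520 genes. These were compared with limma (lmFit, eBayes with an intensity trend, no block), ΔFosB minus control, adjusted by Benjamini-Hochberg over all genes at 0.05. The procedure was tested on simulated data. All members are named, and from each list up to 3 called genes of highest and 3 of lowest moderated statistic, or 1 of each where 0 passed. The members, lists and rules were chosen with earlier results of these data known. Alternatives were quantile normalization, a pseudocount of 64, other filters and probe set rules, no intensity trend, the array letter as replicate block, and dropping arrays singly. Models ran in limma 3.58.1 under R 4.3.3; promoter searches and plots used matplotlib 3.10.9, numpy 2.4.6 and pandas 2.3.3 in Python 3.11.15.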

Additional observations from a re-analysis of the deposited data

How the results depend on the processing

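The family gave 2 higher and 0 lower calls. It gave 1 higher call with quantile normalization and 1 with no filter, since Fosb then missed the threshold (adjusted p = 0.0616 and 0.0511), and 0 to 4 higher and 0 to 1 lower calls without single arrays. The 1902 calls over all genes ranged from 702 to 1697 without single arrays, and the 16 calls over the lists from 7 to 20. With the letters A and B as a replicate block, 3824 genes were called, 42 of the lists, and Jun passed (adjusted p = 0.00225). The labels do not say that the letters pair the samples, and the B minus A differences of the groups correlated at 0.242 across genes, which are not independent replicates. The log2 fold change of Junb turned to -0.029 with quantile normalization and ran from -0.016 to 0.12 without single arrays, and that of Fos ran from -0.27 to 0.38. Leaving out an array leaves 1 in its group, assumed to vary like the other group. The count of members 1.2-fold or more higher on ΔFosB B than on ΔFosB A, 4, was 4 with quantile normalization and 4 with a pseudocount of 64, both chosen after seeing the data. The cause of these changes was not tested.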
